A study of Danio rerio with 3 samples.

Results

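The cells described here are *nkx2.1*+ radial glia of the adult zebrafish telencephalon, taken from 3 droplet single-cell RNA-seq libraries. Cells with at least 200 genes and at most 10% mitochondrial UMIs were counted as noncycling radial glia when they had a UMI of *fabp7a* (a fatty acid binding protein of radial glia) and a UMI of *slc1a2b* (a glutamate transporter) or *cx43* (a gap junction protein). They also had to lack UMIs of the cell cycle genes *rrm2*, *pclaf*, *ube2c*, and *cdk1* and of the neuronal gene *elavl3*. Of 19697 barcodes, 19102 passed the filters and 2729 met these conditions. A total of 101 of them had at least 1 UMI of *nkx2.1* and are called *nkx2.1*+ radial glia, with 47, 9, and 45 cells in replicates 1, 2, and 3. The other 2628 are called *nkx2.1*- radial glia (1201, 712, and 715 cells). Because *nkx2.1* chose the cells, its level in them is not a finding.

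Nkx2.1 is a homeodomain transcription factor that is active in the ventral subpallium, the preoptic area, and the hypothalamus, where it responds to Hedgehog signaling from ventral sources during development. In mouse, progenitors of the medial ganglionic eminence express it and give rise to GABAergic interneurons and to cholinergic neurons. Radial glia of the adult zebrafish telencephalon act as neural stem cells (NSCs), and most of them are quiescent (qNSCs), a state that Notch signaling helps to maintain.

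All 3 libraries carried the same genotype, *Tg(Sox2:gfp)*, the same age of 12 weeks, and the same treatment with the gamma-secretase inhibitor LY-411575 (LY, 10 μM), which blocks Notch activation. The study's methods give 24 hours of treatment, whereas the text deposited with the data gives 48 hours. Each library pooled the cells of 20 fish from its own sorting day, with GFP+ cells mixed with GFP- cells. The hemispheres were trimmed along the border between pallium and subpallium to enrich pallial cells, so that the subpallium was sampled only in part. No vehicle-treated or untreated cells were analysed here, and no effect of LY can be read from these values. All comparisons are between groups of cells within the same 3 libraries, whose sums measure the spread between libraries and sorting days.

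Summed over cells, *nkx2.1*+ radial glia held 106224, 27336, and 108874 UMIs in replicates 1, 2, and 3, and *nkx2.1*- radial glia held 2036025, 1496067, and 1384227 UMIs. Levels are given as UMIs per 1000000 UMIs of these sums (CPM), so that in replicate 2 a single UMI of *nkx2.1*+ radial glia is worth 36.6 CPM. *nkx2.1*+ cells were deeper, with a median of 2074 UMIs per cell against 1645 UMIs in *nkx2.1*- cells. Replicate 2 stood apart because its 9 *nkx2.1*+ cells had a median of 3112 UMIs. The 3 pairs of libraries shared between 53 and 71 barcodes, and no barcode was shared between *nkx2.1*+ cells of different libraries.

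*nkx2.1* was detected at a low level. Of the 101 cells, 76 had a single *nkx2.1* UMI and 25 had 2 or more (9, 1, and 15 cells in replicates 1, 2, and 3), with a highest count of 7 and 152 UMIs in all. Among all radial glia that met the conditions above, 3.77, 1.25, and 5.92% were *nkx2.1*+ in replicates 1, 2, and 3 (3.65 ± 2.34%, SD, n = 3). When each cell was thinned at random to 1000 UMIs, the shares were 2.54, 0.464, and 3.35% (2.12 ± 1.49%, SD, n = 3). Oligodendrocytes and macrophages, which should lack the gene, gave together 1.11, 1.44, and 1.71% at the same depth (1.42 ± 0.302%, SD, n = 3), with unthinned medians of 2131 UMIs per cell against 1664 UMIs in radial glia. The share in radial glia was above this background in replicates 1 and 3 and below it in replicate 2, and the exact 95% intervals of both shares overlapped in every replicate. Such overlap does not show that the shares were equal, and free RNA was not measured. At this depth, a single *nkx2.1* UMI need not come from the cell itself, and the group of 101 cells is defined by its rule.

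**Figure D1:**
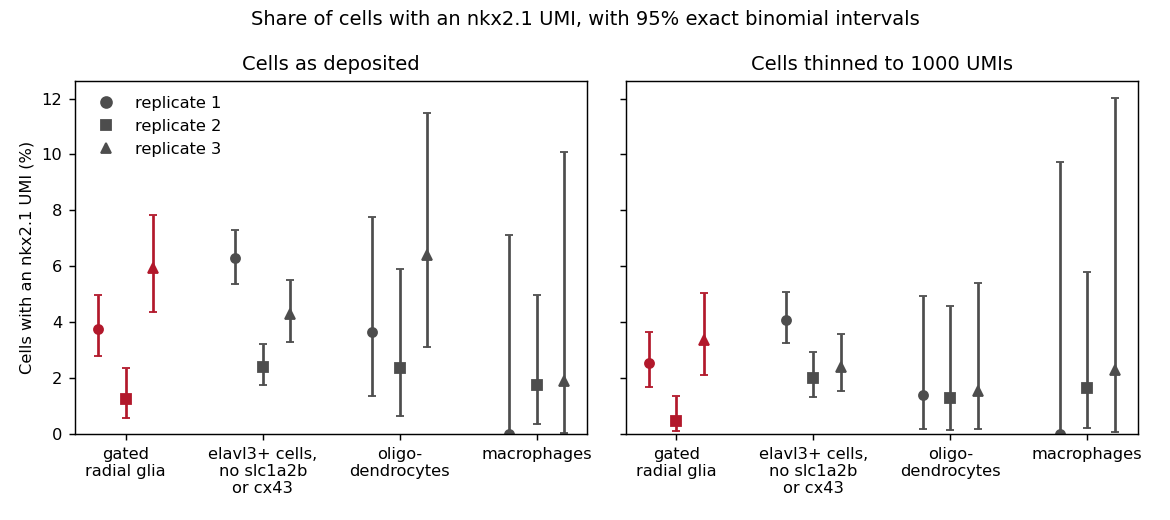
Share of cells with at least 1 *nkx2.1* UMI (%) in radial glia, in *elavl3*+ cells without *slc1a2b* and *cx43*, in oligodendrocytes, and in macrophages, for cells as deposited (left) and thinned to 1000 UMIs (right). Points are replicates and bars are exact 95% binomial intervals, which cover counting error only. Thinned radial glia of replicates 1 and 3 (2.54 and 3.35%) lie above the oligodendrocytes (1.39 and 1.53%), whereas replicate 2 (0.464%) lies below them.

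The regional label could be checked only in part. Of 10 listed transcription factors of the ventral subpallium and preoptic area, 5 had a UMI in *nkx2.1*+ cells, and their summed level was 198, 366, and 220.4 CPM in *nkx2.1*+ cells, against 237, 126, and 165 CPM in *nkx2.1*- cells. Most of this was *sox6*, a SoxD factor, with 122, 293, and 156 CPM in *nkx2.1*+ cells, against 218, 114, and 132 CPM in *nkx2.1*- cells (log2 fold change −0.07 ± 0.32, SE, edgeR adjusted p = 0.98). *lhx6*, a factor of *nkx2.1*-derived interneurons in mouse, had 28.2, 0, and 18.4 CPM in *nkx2.1*+ cells, against 11.8, 7.35, and 18.8 CPM in *nkx2.1*- cells, and the groups overlapped. *lhx8a*, *isl1*, *nkx6.2*, *gbx2*, and *dbx1a* had no UMI in *nkx2.1*+ cells. These genes were rare in *nkx2.1*- cells too, in 0 to 0.474% of cells (means of 3 replicates), so that a difference was not detectable. *nkx2.4b*, a paralog of *nkx2.1* of the ventral forebrain, had 47.1, 36.6, and 36.7 CPM in *nkx2.1*+ cells, against 0.982, 0, and 0.722 CPM in *nkx2.1*- cells. These are 10 UMIs in 8 cells, 5 of which had 2 or more *nkx2.1* UMIs, against 3 UMIs in 2 cells, a ratio of 67.6 with an exact 95% counting interval of 17.4 to 382, and the gene was too low for the test across genes. Of the 10 listed genes of hypothalamus and preoptic area, *rx3*, *otpb*, *sim1a*, and *six6b* had no UMI in *nkx2.1*+ cells, *otpa*, *hmx2*, *hmx3a*, *nr5a1a*, and *six6a* had 1 UMI each, and *fezf1*, described with the pallial genes, had 16. Their summed level was 94.1, 109.7, and 73.5 CPM in *nkx2.1*+ cells, against 167, 263, and 199 CPM in *nkx2.1*- cells. The telencephalic factor *foxg1a* had 537, 256, and 395 CPM in *nkx2.1*+ cells, against 415, 288, and 303 CPM in *nkx2.1*- cells. The name *nkx2.1*+ radial glia is used here without a region.

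To find what else set these cells apart, summed UMIs were compared between *nkx2.1*+ and *nkx2.1*- radial glia with edgeR's quasi-likelihood test, with the replicate as a block because both sums of a replicate come from 1 library. Of 7228 genes tested, 121 (1.67%) passed an adjusted p of 0.05, 67 of them (0.927%) higher and 54 (0.747%) lower in *nkx2.1*+ cells, and 8.36% had an unadjusted p under 0.05. The median log2 fold change of all tested genes was −0.15. Without the replicate block, 25 genes passed. Without replicate 1, 2, or 3, the counts were 37, 283, and 21. Of the 67 higher genes, 10 passed with the same direction under every alternative in which they were tested, and of the 54 lower genes none did, although 5 of these passed without each replicate in turn. The 10 genes were *slit2*, *ntn1a*, *ntn1b*, *sulf1*, *auts2b*, *porb*, the transporter gene *slc16a9a*, and 3 genes with clone names. *slit2*, *ntn1a*, and *ntn1b* entered the test only through *nkx2.1*+ cells, and *slc16a9a* would not have entered it on its *nkx2.1*- sums alone. *ntn1b* and *sulf1* were named as markers of these cells with these data known. The alternatives reuse the same cells and are no independent check of any of the 10 genes. *slc16a9a* was tested under 9 of 12 alternatives. It had 198, 0, and 184 CPM in *nkx2.1*+ cells, against 17.7, 7.35, and 5.78 CPM in *nkx2.1*- cells, and the groups overlapped. The higher genes are described first.

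Secreted axon guidance cues were among the higher genes. *slit2*, a repellent ligand of Robo receptors, had 151, 36.6, and 73.5 CPM in *nkx2.1*+ cells, against 4.42, 2.01, and 3.61 CPM in *nkx2.1*- cells. In such sums, more cells with a transcript and more RNA per cell cannot be told apart. *ntn1b*, an ortholog of netrin 1, which attracts or repels growing axons, had 433, 256, and 138 CPM in *nkx2.1*+ cells, against 16.7, 4.68, and 9.39 CPM in *nkx2.1*- cells. Its paralog *ntn1a* had 179, 109.7, and 64.3 CPM in *nkx2.1*+ cells, against 12.3, 2.67, and 5.78 CPM in *nkx2.1*- cells. For each of these genes, every replicate of *nkx2.1*+ cells lay above every replicate of *nkx2.1*- cells, which was so for 7.25% of all tested genes. *slit2*, *ntn1a*, and *ntn1b* entered the test only through *nkx2.1*+ cells, where they were high, so that no fitted value is given for them. *ntn1b* passed under every alternative in which it was tested, but the alternatives reuse the same cells and are no independent support. *efna1a*, an ephrin-A ligand of Eph receptors, had 122, 109.7, and 156 CPM in *nkx2.1*+ cells, against 17.2, 16.7, and 16.6 CPM in *nkx2.1*- cells (log2 fold change 2.86 ± 0.44, SE, edgeR adjusted p = 4.78e-08), and its adjusted p without replicate 3 was 0.0683.

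No listed receptor of netrin or Slit proteins passed the test. Of 30 listed axon guidance genes, which do not include *efna1a*, 12 could be tested, 3 rose and none fell, and their median log2 fold change was −0.04, near that of all tested genes. The 3 were *slit2*, *ntn1a*, and the marker *ntn1b*, all tested only through *nkx2.1*+ cells. Over all tested genes, 0.927% rose. *robo2*, a Slit receptor, had 65.9, 73.2, and 27.6 CPM in *nkx2.1*+ cells, against 105, 50.8, and 55.6 CPM in *nkx2.1*- cells. The netrin receptor genes *unc5a*, *unc5b*, and *unc5c* had no UMI in *nkx2.1*+ cells and *dcc* had a CPM of 9.18 in replicate 3 only. At this depth, 3 UMIs over the group would be 12.4 CPM. *draxin*, a secreted netrin antagonist, had 104, 36.6, and 73.5 CPM in *nkx2.1*+ cells, against 137, 179, and 169.8 CPM in *nkx2.1*- cells, without overlap, but its log2 fold change of −1.06 did not pass (adjusted p = 0.159). In this direction, 9.23% of tested genes did not overlap.

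Extracellular sulfatases of heparan sulfate also rose. *sulf1* and its relatives remove sulfate groups from heparan sulfate chains at the cell surface and so alter the binding of secreted ligands. *sulf1* had 480.1, 183, and 478 CPM in *nkx2.1*+ cells, against 33.4, 18.7, and 31.1 CPM in *nkx2.1*- cells (log2 fold change 3.69 ± 0.30, SE, adjusted p = 1.59e-31), and it passed under every alternative. *sulf2a* had 18.8, 0, and 110.2 CPM in *nkx2.1*+ cells, against 9.33, 15.4, and 13.0 CPM in *nkx2.1*- cells. Its *nkx2.1*- sums alone would not have entered the test, so that no fitted value is given for it. The *sulf2a* groups overlapped, and its call was lost without replicate 3. Of 10 tested genes of heparan sulfate proteoglycans and their modifying enzymes, these 2 rose and none fell, with a median log2 fold change of 0.48 against −0.15 over all genes. Among all tested genes, 0.927% rose.

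Of the transporters of inhibitory transmitters, *slc6a1b* and *slc6a9* rose. *slc6a1b*, a paralog of the GABA transporter gene GAT-1, had 2297, 549, and 1598 CPM in *nkx2.1*+ cells, against 340.4, 126, and 171 CPM in *nkx2.1*- cells (log2 fold change 2.65 ± 0.27, SE, adjusted p = 4.04e-19). *slc6a9*, a glycine transporter gene, had 113, 109.7, and 82.7 CPM in *nkx2.1*+ cells, against 38.8, 26.7, and 23.8 CPM in *nkx2.1*- cells (log2 fold change 1.58 ± 0.44, SE, adjusted p = 0.0226). *slc6a1b* passed in every fit except that with 2 or more *nkx2.1* UMIs (adjusted p = 0.158), where its log2 fold change was again 2.65, whereas *slc6a9* passed neither without replicate 1 (adjusted p = 0.715) nor without replicate 3 (adjusted p = 0.969). The 8 tested genes of GABA and amino acid transport had a median log2 fold change of 0.38, these 2 rose, and none fell. Over all tested genes, 0.927% rose. The other GAT-1 paralog, *slc6a1a*, had 132, 0, and 110.2 CPM in *nkx2.1*+ cells, against 110.02, 98.3, and 87.4 CPM in *nkx2.1*- cells.

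Transcription factors and regulators with higher levels included *sox1b*, a SoxB1 factor of neural progenitors, with 84.7, 183, and 257 CPM in *nkx2.1*+ cells, against 32.9, 30.1, and 42.6 CPM in *nkx2.1*- cells (log2 fold change 2.09 ± 0.36, SE, adjusted p = 1.75e-06, and 0.922 without replicate 3). *auts2b*, a paralog of the neurodevelopmental gene AUTS2, had 377, 146, and 285 CPM in *nkx2.1*+ cells, against 67.3, 32.8, and 33.95 CPM in *nkx2.1*- cells (log2 fold change 2.54 ± 0.30, SE, adjusted p = 3.45e-14). The paralog *sox1a* and the related *sox2* and *sox3* did not pass, and *sox1b* was the single riser among 12 tested regulators of telencephalon and radial glia. Among all tested genes, 0.927% rose. The forebrain homeobox gene *six3a* had 188, 73.2, and 202 CPM in *nkx2.1*+ cells, against 55.5, 45.5, and 77.3 CPM in *nkx2.1*- cells (log2 fold change 1.38 ± 0.33, SE, adjusted p = 0.00408). Without replicates 1 and 3 in turn, the adjusted p of *six3a* was 0.713 and 0.82. *stox1*, a winged helix gene, had 75.3, 36.6, and 27.6 CPM in *nkx2.1*+ cells, from 12 UMIs in all, against 4.42, 8.02, and 5.78 CPM in *nkx2.1*- cells. It entered the test only through *nkx2.1*+ cells, where it was high, so that no fitted value is given. It did not pass without replicate 1 or 3 (adjusted p = 0.999 and 0.173).

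Metabolic genes and a lectin gene completed the 12 largest rises. *ckba*, a brain-type creatine kinase, had 226, 146, and 101 CPM in *nkx2.1*+ cells, against 15.23, 29.4, and 19.5 CPM in *nkx2.1*- cells (log2 fold change 2.92 ± 0.40, SE, adjusted p = 1.27e-10, and 0.161 without replicate 1). *porb*, a paralog of the cytochrome P450 reductase gene, had 245, 73.2, and 211 CPM in *nkx2.1*+ cells, against 35.4, 31.4, and 33.95 CPM in *nkx2.1*- cells (log2 fold change 2.44 ± 0.34, SE, adjusted p = 3.42e-10). *dhrs3b*, a paralog of a retinaldehyde reductase gene, had 84.7, 146, and 73.5 CPM in *nkx2.1*+ cells, against 14.7, 16.0, and 15.17 CPM in *nkx2.1*- cells (log2 fold change 2.43 ± 0.52, SE, adjusted p = 0.000566). The lectin gene *hbl1* rose by a log2 fold change of 2.31 ± 0.55 (SE, adjusted p = 0.00367). Neither *dhrs3b* (adjusted p = 0.19 and 0.243) nor *hbl1* (adjusted p = 0.726 and 0.61) passed without replicate 1 or 3, whereas *porb* passed under every alternative in which it was tested. A gene with a clone name that passed under every alternative, *si:ch211-243a20.3*, was named after its values were seen and had 960.2, 1024, and 1469.6 CPM in *nkx2.1*+ cells, against 71.2, 56.8, and 116 CPM in *nkx2.1*- cells (log2 fold change 3.68 ± 0.27, SE, edgeR adjusted p = 3.74e-38).

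**Figure D2:**
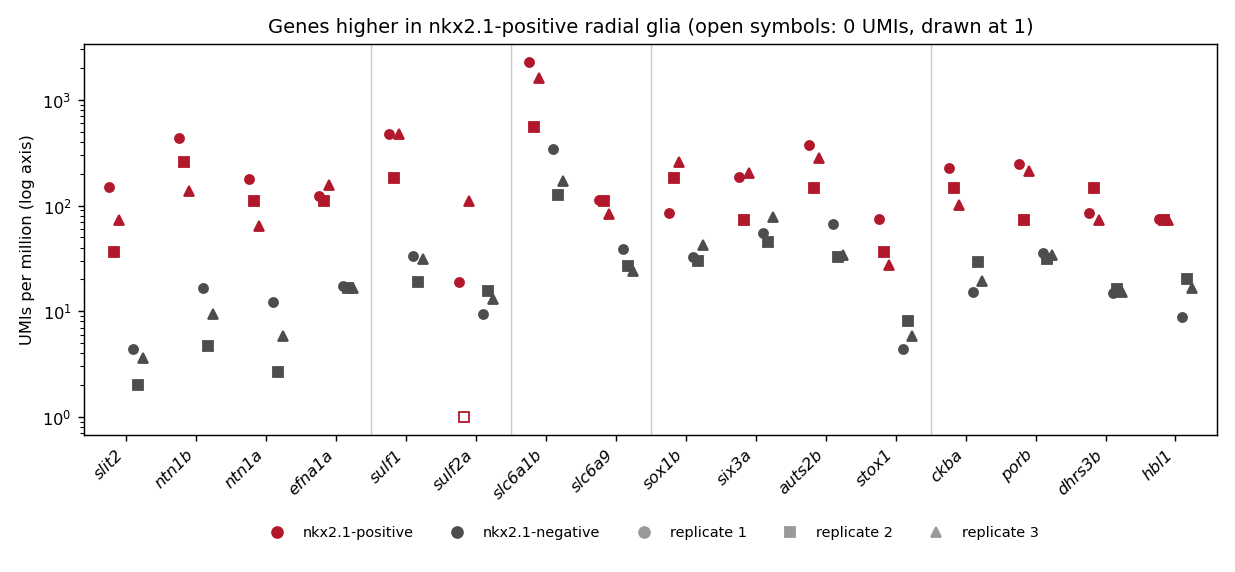
Level (CPM, log axis) of 16 genes that were higher in *nkx2.1*+ radial glia (red) than in *nkx2.1*- radial glia (grey), one point per replicate. Vertical lines part guidance cues, sulfatases, transporters, regulators, and other genes. The groups overlap for *sulf2a* (0 to 110.2 CPM in *nkx2.1*+ cells, against 9.33 to 15.4 CPM) and for *six3a* (73.2 to 202 CPM against 45.5 to 77.3 CPM).

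Shares of positive cells are given at equal depth for *ntn1b*, *sulf1*, and *slc6a1b*. These genes were named as markers of the cells with these data known, and the cells are those of the sums above. Their shares are thus a description and no independent check of the rises. With each cell thinned to 1000 UMIs (96 of 101 and 2310 of 2628 cells), *ntn1b* was detected in 26.1, 11.1, and 12.2% of *nkx2.1*+ cells, against 0.945, 0.471, and 0.325% of *nkx2.1*- cells. *sulf1* was detected in 28.3, 22.2, and 19.5% of *nkx2.1*+ cells, against 2.93, 1.88, and 1.63% of *nkx2.1*- cells. *slc6a1b* was detected in 52.2, 22.2, and 51.2% of *nkx2.1*+ cells, against 20.4, 9.58, and 12.4% of *nkx2.1*- cells. The differences were 15.9 ± 8.04, 21.2 ± 3.79, and 27.8 ± 13.6 percentage points (SD, n = 3), positive in 3 of 3 replicates, and an exact sign-flip permutation test of 3 pairs cannot give a two-sided p below 0.25. In oligodendrocytes and macrophages at the same depth, the gene detected most often was *slc6a1b* (8.39 ± 4.28%), whereas *ntn1b* was in 0 of 632 cells, which allows a share of up to 0.475%.

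Genes lower in *nkx2.1*+ than in *nkx2.1*- cells included membrane partners of the Hedgehog receptor. Gas1, Boc, and Cdon are co-receptors that help Patched to bind Hedgehog ligands. *gas1a* had 113, 146, and 91.8 CPM in *nkx2.1*+ cells, against 259, 339, and 371 CPM in *nkx2.1*- cells (log2 fold change −1.65 ± 0.34, SE, adjusted p = 0.000281). *gas1b* had 47.1, 146, and 55.1 CPM in *nkx2.1*+ cells, against 168, 202, and 168 CPM in *nkx2.1*- cells (log2 fold change −1.56 ± 0.39, SE, adjusted p = 0.00808). *boc* had 207, 109.7, and 156 CPM in *nkx2.1*+ cells, against 333, 381, and 353 CPM in *nkx2.1*- cells (log2 fold change −1.17 ± 0.31, SE, adjusted p = 0.0136). None of the 3 genes overlapped between groups, which was so in this direction for 9.23% of tested genes. In contrast, *cdon* had 75.3, 293, and 129 CPM in *nkx2.1*+ cells, against 68.8, 60.2, and 62.9 CPM in *nkx2.1*- cells, again without overlap, but its log2 fold change of 0.88 did not pass (adjusted p = 0.326). In the higher direction, 7.25% of tested genes did not overlap.

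The rest of the Hedgehog pathway gave no call. Of its 18 listed genes, 10 were tested, these 3 fell, none rose, and the median log2 fold change was −0.34, or −0.27 with *scube2*, which had no UMI in *nkx2.1*+ cells, at the bound that 3 UMIs over the group set. Over all tested genes, 0.747% fell. The signal transducer *smo* had 84.7, 109.7, and 55.1 CPM in *nkx2.1*+ cells, against 54.5, 64.2, and 48.4 CPM in *nkx2.1*- cells, and the factor *gli3* had 104, 109.7, and 55.1 CPM in *nkx2.1*+ cells, against 93.8, 37.4, and 38.3 CPM in *nkx2.1*- cells. The pathway targets *ptch1* and *gli1* had no UMI in *nkx2.1*+ cells, where 3 UMIs over the group would be 12.4 CPM. *gli1* had 10.3, 11.4, and 8.67 CPM in *nkx2.1*- cells, so that a difference was not detectable at this depth. The ligand gene *shha* had 1 UMI in *nkx2.1*+ cells and *shhb* none. Without replicate 3, none of *gas1a*, *gas1b*, and *boc* passed (adjusted p = 0.631, 0.817, and 0.908), and without replicate 1 *gas1a* alone did (adjusted p = 0.0253, against 0.543 for *gas1b* and 0.127 for *boc*). Against *gsx2*+ radial glia, the comparison given last, none of the 3 passed, with log2 fold changes of −1.05 for *gas1a* (adjusted p = 0.172), −0.97 for *gas1b* (adjusted p = 0.503), and −0.61 for *boc* (adjusted p = 0.689).

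**Figure D3:**
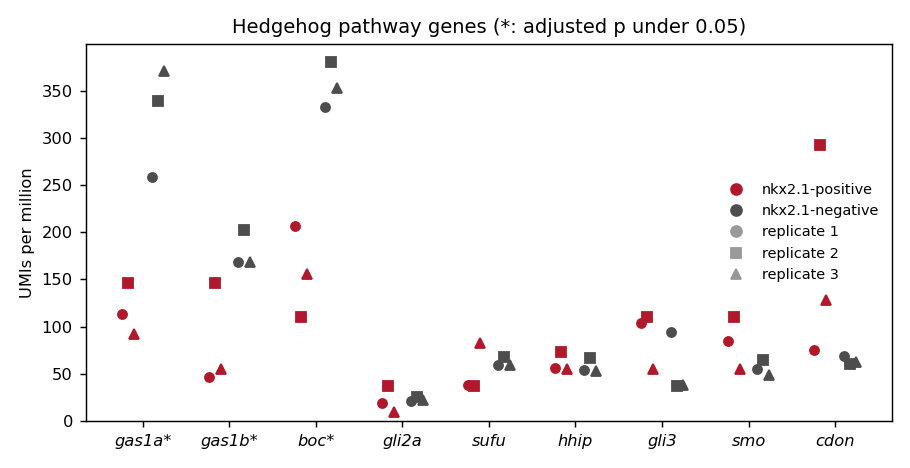
Level (CPM) of 9 tested Hedgehog pathway genes in *nkx2.1*+ (red) and *nkx2.1*- (grey) radial glia, one point per replicate, with an asterisk where the adjusted p was under 0.05. *gas1a* lies at 91.8 to 146 CPM in *nkx2.1*+ cells, against 259 to 371 CPM in *nkx2.1*- cells, and *cdon* at 75.3 to 293 CPM against 60.2 to 68.8 CPM.

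Of the pallial transcription factors, *eomesa* and *neurod1* fell. *eomesa* (Tbr2), a pallial progenitor factor, had 9.41, 73.2, and 36.7 CPM in *nkx2.1*+ cells, against 87.4, 128, and 96.1 CPM in *nkx2.1*- cells. *neurod1*, a proneural factor of glutamatergic neurogenesis, had 9.41, 73.2, and 18.4 CPM in *nkx2.1*+ cells, against 59.9, 136, and 78.7 CPM in *nkx2.1*- cells. *eomesa* and *neurod1* entered the test only through *nkx2.1*- cells, where they were high, so that no fitted value is given for them. Of the 9 tested pallial genes, these 2 fell and none rose, with a median log2 fold change of −1.07. Among all tested genes, 0.747% fell. The summed level of the 14 listed pallial genes was 282, 988, and 349 CPM in *nkx2.1*+ cells, against 659, 836, and 847 CPM in *nkx2.1*- cells, so that it was higher in *nkx2.1*+ cells of replicate 2. The pallial homeobox genes *emx2* (log2 fold change −1.29, adjusted p = 0.0677) and *emx3* (−1.41, adjusted p = 0.0638) missed the threshold. The calls of *eomesa* and *neurod1* were lost without replicate 1 (adjusted p = 0.93 and 0.583) and without replicate 3 (adjusted p = 0.527 and 0.922). *fezf1*, a zinc finger factor of the forebrain listed with hypothalamic genes, had 75.3, 109.7, and 45.9 CPM in *nkx2.1*+ cells, against 161, 254, and 183 CPM in *nkx2.1*- cells (log2 fold change −1.57 ± 0.39, SE, adjusted p = 0.00563, and 0.1 and 0.922 without replicates 1 and 3).

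Dorsal subpallial genes did not set the groups apart. Of 16 listed genes, 10 were tested, *six3a* rose (0.927% of all tested genes rose), none fell, and the median log2 fold change was 0. *gsx2*, which marks the dorsal subpallial ventricular zone, had 56.5, 329, and 91.8 CPM in *nkx2.1*+ cells, against 97.7, 85.6, and 98.2 CPM in *nkx2.1*- cells (log2 fold change 0.09 ± 0.37, SE, adjusted p = 0.98). *dlx5a*, a factor of subpallial GABAergic differentiation, had 37.7, 73.2, and 110.2 CPM in *nkx2.1*+ cells, against 76.6, 39.4, and 80.9 CPM in *nkx2.1*- cells.

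Core radial glia genes moved in both directions. Of 19 tested genes of radial glia identity, *sparc* rose, and *mdka*, *mdkb*, and *apoeb* fell. Over all tested genes, 0.927% rose and 0.747% fell. *sparc*, which encodes a secreted matrix glycoprotein, had 508, 695, and 707 CPM in *nkx2.1*+ cells, against 148, 300.1, and 336 CPM in *nkx2.1*- cells (log2 fold change 1.21 ± 0.26, SE, adjusted p = 0.000664). The midkine genes *mdka* and *mdkb* encode heparin-binding growth factors. *mdka* had 885, 1427, and 1672 CPM in *nkx2.1*+ cells, against 1899, 3105, and 2815 CPM in *nkx2.1*- cells (log2 fold change −1.14 ± 0.26, SE, adjusted p = 0.0025). *mdkb* had 3286, 3146, and 2857 CPM in *nkx2.1*+ cells, against 5141, 5557, and 5198 CPM in *nkx2.1*- cells (log2 fold change −0.94 ± 0.27, SE, adjusted p = 0.0366). The apolipoprotein E gene *apoeb* had 18.8, 0, and 45.9 CPM in *nkx2.1*+ cells, against 62.9, 131, and 125 CPM in *nkx2.1*- cells. *apoeb* entered the test only through *nkx2.1*- cells, where it was high, so that no fitted value is given for it. None of these 4 genes overlapped between the groups, which was so for 7.25% of tested genes in the higher and 9.23% in the lower direction. Without replicate 1, their adjusted p was 0.617 for *sparc*, 0.625 for *mdka*, 0.999 for *mdkb*, and 0.224 for *apoeb*, and without replicate 3 it was 0.52, 0.616, 1, and 0.52 in the same order of genes. The glutamine synthetase gene *glula* had 10610, 8304, and 6466 CPM in *nkx2.1*+ cells, against 7052, 13302, and 9061 CPM in *nkx2.1*- cells.

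Genes of activation and Notch signaling passed in neither direction. *ascl1a*, a proneural factor that Notch effectors repress, had 499, 1061, and 891 CPM in *nkx2.1*+ cells, against 871, 1225, and 1325 CPM in *nkx2.1*- cells (log2 fold change −0.70 ± 0.26, SE, adjusted p = 0.215). *ccnd1*, a cyclin of the G1 phase, had 932, 1097, and 671 CPM in *nkx2.1*+ cells, against 1355, 1241, and 1276 CPM in *nkx2.1*- cells (log2 fold change −0.73 ± 0.26, SE, adjusted p = 0.172). *ccnd1* did not overlap between the groups, which was so in this direction for 9.23% of tested genes. Without replicate 2, both *ascl1a* and *ccnd1* passed (adjusted p = 0.000838 for *ascl1a* and 9.15e-05 for *ccnd1*). None of 12 tested genes of activation and commitment, 14 of G1/S, 9 Notch effectors, and 9 Notch receptors and ligands passed, with medians of −0.42, −0.26, 0.03, and −0.62. *her4.1*, a Notch effector, had 367, 0, and 64.3 CPM in *nkx2.1*+ cells, against 104, 186, and 171 CPM in *nkx2.1*- cells, and 20 of its 46 UMIs came from a single cell of replicate 1. *id3*, an inhibitor of bHLH factors and a target of BMP signaling, rose by a log2 fold change of 0.91 ± 0.27 (SE, adjusted p = 0.0422), with 254, 951, and 487 CPM in *nkx2.1*+ cells, against 185, 225, and 282 CPM in *nkx2.1*- cells, and did not pass without any 1 of the replicates (adjusted p = 0.191, 0.19, and 1). The immediate early gene *junbb* had 404.8, 476, and 285 CPM in *nkx2.1*+ cells, against 572, 1188, and 623 CPM in *nkx2.1*- cells (log2 fold change −1.09 ± 0.28, SE, adjusted p = 0.00808, and 0.1 and 0.969 without replicates 1 and 3).

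Several of the lower genes were markers of other cell types. *cd74a*, an antigen presentation gene of macrophages, had 9.41, 0, and 9.18 CPM in *nkx2.1*+ cells, against 139.98, 189.8, and 126 CPM in *nkx2.1*- cells. These were 2 UMIs against 743 UMIs, which is 18.3-fold lower with an exact 95% counting interval of 5.05 to 152. *cd74a* entered the test only through *nkx2.1*- cells, where it was high, so that no fitted value is given. Its paralog *cd74b* had no UMI in *nkx2.1*+ cells, against 39.8, 50.8, and 37.6 CPM in *nkx2.1*- cells, at least 3.44-fold lower when set against 3 UMIs over the group. The galectin binding gene *lgals3bpb* had likewise no UMI in *nkx2.1*+ cells, at least 3.68-fold lower. Of 12 listed macrophage genes, 8 had no UMI in *nkx2.1*+ cells, among them the defining markers *mpeg1.1* and *csf1ra*, and their summed level was 18.8 to 73.2 CPM in *nkx2.1*+ cells, against 293 to 491 CPM in *nkx2.1*- cells. Of the 4 tested, 3 fell (0.747% of all tested genes fell), and the median log2 fold change was −3.53, or −2.45 with *cd74b* at its bound. *cd74a* and *cd74b*, both tested only through *nkx2.1*- cells, were among the 3. Hemoglobin, from blood cells, summed to 9.41, 1061, and 184 CPM in *nkx2.1*+ cells, against 97.2, 4081, and 1677 CPM in *nkx2.1*- cells. It was lower in *nkx2.1*+ cells of each library, although it differed more between libraries than between the groups. Of 3 tested hemoglobin genes, 2 fell (0.747% of all tested genes fell), with a median log2 fold change of −3.08. With 9.41 CPM summed in replicate 1, no listed hemoglobin gene would have entered the test on its *nkx2.1*+ sums alone. *hbaa1* and both identifiers of *hbba1* passed without each replicate in turn but not without the replicate block (edgeR adjusted p = 0.228 for *hbaa1*).

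Some genes of the oligodendrocyte lineage fell as well. The apelin receptor gene *aplnra*, a marker of oligodendrocyte precursor cells (OPCs) in this list, had 725, 0, and 276 CPM in *nkx2.1*+ cells, against 1144, 608, and 592 CPM in *nkx2.1*- cells. Of 7 tested OPC genes, *aplnra*, *aplnrb*, *olig1*, and *nkx2.2a* fell and none rose, with a median of −1.13 and summed levels of 146 to 1469 CPM in *nkx2.1*+ cells, against 1316 to 2267 CPM in *nkx2.1*- cells. Among all tested genes, 0.747% fell. The myelin genes *mbpa* (log2 fold change −1.64, adjusted p = 0.00181) and *mpz* fell among 5 tested oligodendrocyte genes. On their *nkx2.1*+ sums alone, *mpz* and the OPC genes that fell would not have entered the test. No fitted value is given for them. Without replicate 3, *aplnra* had an adjusted p of 0.226 and *mbpa* of 0.266, and without replicate 1 *mbpa* had 0.574 and *mpz* 0.999. Of 8 tested neuronal genes none passed, with a median of 0.28 and summed levels of 1836, 549, and 1718 CPM in *nkx2.1*+ cells, against 1502, 878, and 1070 CPM in *nkx2.1*- cells. As an alternative, every cell was left out of both groups that had a UMI of *elavl4*, *snap25a*, *gad1b*, *gad2*, *slc17a6b*, *sox10*, *mbpa*, or *mpeg1.1*. This left 15, 2, and 12 *nkx2.1*+ cells. Then 30 genes passed of 3552 tested, with 10 higher and 14 lower genes kept from the full comparison. Of the 121 genes called in the full comparison, 86 could still be tested and all 86 had the same direction. With so few cells, the lost calls do not show the part of other cell types, which was not tested further.

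Other genes among the 12 largest falls were *prdm8*, *igfbp1a*, *c7b*, *prkacab*, and *xrcc1*, each with 1 or 2 UMIs in *nkx2.1*+ cells. All 5 entered the test only through *nkx2.1*- cells, where they were high, so that no fitted value is given for them. *igfbp1a*, which encodes an insulin-like growth factor binding protein, had 18.8, 0, and 0 CPM in *nkx2.1*+ cells, against 91.8, 59.5, and 54.9 CPM in *nkx2.1*- cells. *prdm8*, a zinc finger factor of neural development, had 9.41, 36.6, and 0 CPM in *nkx2.1*+ cells, against 52.6, 64.2, and 84.5 CPM in *nkx2.1*- cells. Pooled over replicates, these genes were between 7.05-fold and 11.1-fold lower, with lower bounds of the exact 95% counting intervals between 1.91-fold and 2.38-fold. None of the 5 passed without replicate 1 (adjusted p between 0.0956 and 0.854) or without replicate 3 (adjusted p between 0.527 and 1).

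The group of 101 cells was not uniform. *ntn1b*, *sulf1*, and *slc6a1b*, which were named as its markers with these data known, were used to describe how it divides, and all that follows on this division was chosen after the values were seen and is given without a test. At least 2 of the 3 markers were detected in 35 of 101 *nkx2.1*+ cells (34.7%, exact 95% interval 25.5 to 44.8%), against 44 of 2628 *nkx2.1*- cells (1.67%, 1.22 to 2.24%). The cells with 2 or more markers were 17, 2, and 16 of the *nkx2.1*+ cells in replicates 1, 2, and 3, against 22, 8, and 14 of the *nkx2.1*- cells. At the threshold of the rule itself, 16 of 76 cells with a single *nkx2.1* UMI (21.1%, 12.5 to 31.9%) had at least 2 markers, whereas 19 of 25 cells with 2 or more *nkx2.1* UMIs (76.0%, 54.9 to 90.6%) did. Depth moved with this difference, and its part was not tested, with medians of 1812.5 UMIs per cell for a single *nkx2.1* UMI and 3032 UMIs for 2 or more.

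The 35 cells with 2 or 3 markers had higher levels of several other risers. *slit2* was at 199.9 CPM over these 35 cells, against 32.5 CPM in the 29 cells with 1 marker and none in the 37 cells without a marker. *ntn1a* was at 235 CPM in the 35 cells, against 32.5 CPM in the 29 and none in the 37, and *ckba* at 261 CPM, against 146 CPM and none. *six3a* (322, 97.4, and 15.21 CPM over the 35, 29, and 37 cells), *efna1a* (217, 97.4, and 30.4 CPM), and *auts2b* (521, 195, and 45.6 CPM) declined in the same order. The markers of radial glia were high in the 35 cells, with 16669 CPM of *cx43*, 11116 CPM of *slc1a2b*, and 15183 CPM of *fabp7a*, against 5034, 2920, and 4197 CPM of the same genes in the 37 cells without a marker. These 3 genes set the conditions for all cells and are given only as levels. The 35 cells had a median of 3145 UMIs and the 37 cells of 1664 UMIs, and the part of depth was not tested.

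The 37 cells without a marker had more RNA of *ccnd1* and *ascl1a* than the 35. *ccnd1* was at 2023 CPM in the 37 cells (2414, 1791, and 1678 CPM in replicates 1, 2, and 3), against 252 CPM in the 35 cells (220, 707, and 212 CPM). *ascl1a* was at 1551 CPM in the 37 cells, against 495 CPM in the 35 cells. *gas1a* was at 365 CPM in the 37 cells, against 8.69 CPM in the 35 cells, and *boc* at 456 CPM against 60.8 CPM. On these genes, the 37 cells lay on the side of *nkx2.1*- cells with fewer than 2 markers, which had 1312 CPM of *ccnd1*, 1115 CPM of *ascl1a*, 319 CPM of *gas1a*, and 357 CPM of *boc*. The levels of *gas1a*, *boc*, *ccnd1*, and *ascl1a* below those of *nkx2.1*- cells were thus those of the cells with at least 1 marker, in which *gas1a* was at 16.2 CPM (1 marker) and 8.69 CPM (2 or 3 markers).

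The 29 cells with a single marker, which was *slc6a1b* in 23 of them, had higher pooled levels of some neuronal genes, which rested on few cells. The somatostatin gene *sst1.1* was at 2305 CPM in the 29 cells, against 139 CPM in the 35 cells and 274 CPM in the 37 cells. The synaptic gene *syt1a* was at 958 CPM in the 29 cells, against 60.8 CPM in the 35 and 243 CPM in the 37, and the GABA synthesis gene *gad1b* at 308 CPM, against 43.5 and 76.0 CPM. The neuronal growth gene *gap43* went the other way between the 29 and the 37 cells, at 195 CPM in the 29 cells, against 122 CPM in the 35 and 274 CPM in the 37. The synaptic gene *snap25a* was detected in 31.0% of the 29 cells, against 28.6% of the 35 and 29.7% of the 37. Of the 59 *syt1a* UMIs in the 29 cells, 43 came from 6 cells of replicate 3, and the 3 cells of replicate 2 had no UMI of *gad1b*, *gad2*, and *snap25a*. A few cells gave most of the neuropeptide RNA: of the 176 *sst1.1* UMIs in *nkx2.1*+ cells, 76 came from 1 cell, and of the 38 UMIs of the cortistatin gene *cort*, 37 did. *cort* was among the 67 higher genes (0, 0, and 349 CPM in *nkx2.1*+ cells, against 26.5, 3.34, and 14.4 CPM in *nkx2.1*- cells), and that call rested on this single cell. Of the 101 cells, 6 exceeded the doublet limit or the fit of genes on UMIs, 4 of them among the 35 cells and 2 among the 29.

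The 44 *nkx2.1*- cells with 2 or 3 markers also had raised levels of several other risers. Over these 44 cells, *slit2* was at 48.5 CPM, *ntn1a* at 77.5 CPM, *efna1a* at 145 CPM, *ckba* at 155 CPM, *six3a* at 194 CPM, and *auts2b* at 262 CPM, against 2.49, 6.03, 14.1, 17.9, 55.7, and 42.8 CPM of the same genes in the other *nkx2.1*- cells. *ccnd1* was at 639.6 CPM, *gas1a* at 96.9 CPM, and *boc* at 184 CPM, each between the 35 *nkx2.1*+ cells and the other *nkx2.1*- cells. *gsx2* was at 104 CPM in the 35 cells, against 271 CPM in the 44 cells, and *lmo1*, a LIM-only factor, at 278 CPM in the 35 cells, against 67.8 CPM in the 44 cells.

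**Figure D4:**
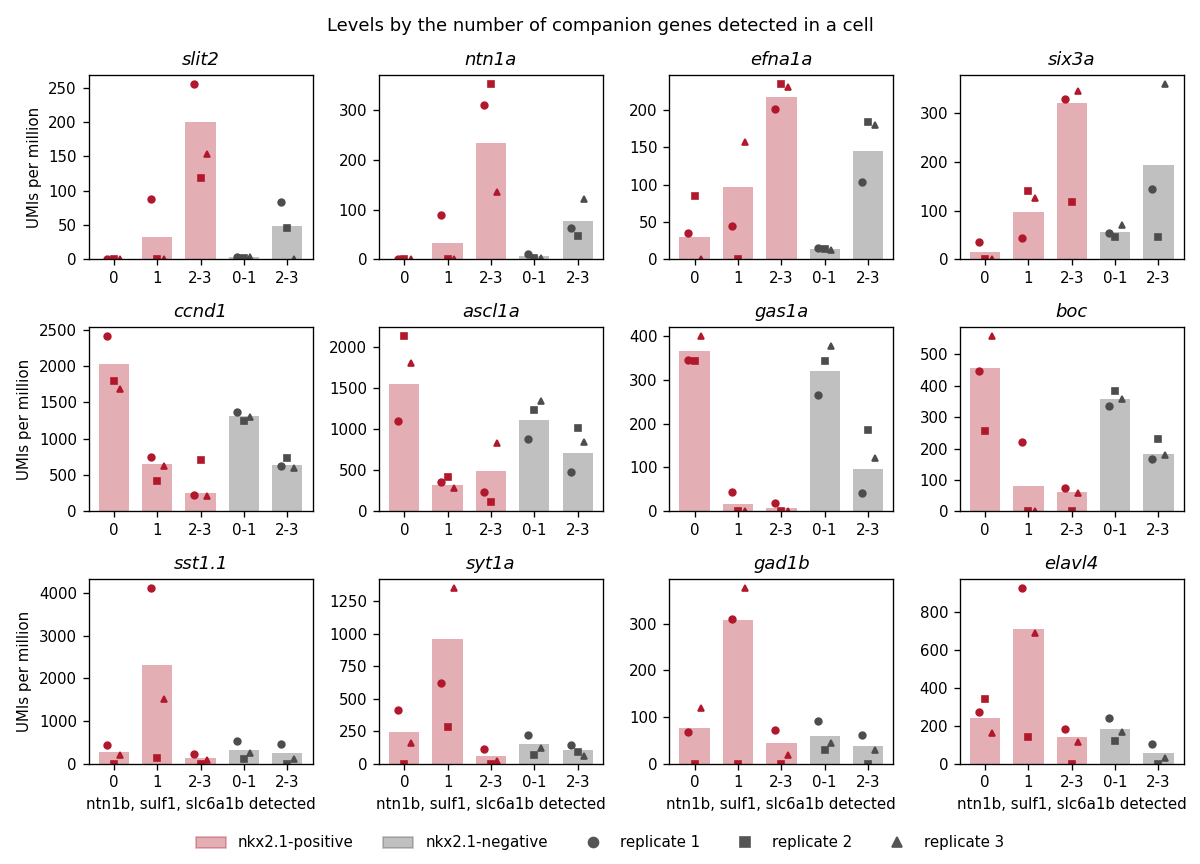
Level (CPM) of 12 genes by how many of *ntn1b*, *sulf1*, and *slc6a1b* were detected in a cell, for *nkx2.1*+ (red) and *nkx2.1*- (grey) radial glia. Bars are pooled over replicates and points are replicates. *slit2* and *ntn1a* are highest in *nkx2.1*+ cells with 2 or 3 markers (199.9 and 235 CPM), *ccnd1* in those with none (2023 CPM), and *sst1.1* and *syt1a* in those with 1 (2305 and 958 CPM).

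The 91 *nkx2.1*+ cells without a *gsx2* UMI were then compared with 179 *gsx2*+ *nkx2.1*- radial glia (82, 49, and 48 cells), a population of the dorsal subpallium by its marker. Both groups were chosen by a single gene, 10 cells had both and were left out, and the *nkx2.1*+ cells are those of the comparison above. Of 1452 genes tested, 35 (2.41%) passed, 18 higher (1.24%) and 17 lower (1.17%) in *nkx2.1*+ cells, and 9.16% had an unadjusted p under 0.05. Without the replicate block 11 passed, and without replicates 1, 2, and 3 there were 6, 66, and 12. Mitochondrial and neuronal RNA moved with this comparison, and their part in it was not tested. The 13 mitochondrial genes summed to 24082, 15796, and 19669 CPM in *nkx2.1*+ cells, against 13103, 10814, and 11942 CPM in *gsx2*+ cells, with *mt-nd3* rising among 10 tested and a median log2 fold change of 0.75, against 0.01 over all tested genes. The 12 neuronal genes summed to 1877, 546, and 1967 CPM in *nkx2.1*+ cells, against 1161, 593, and 583 CPM in *gsx2*+ cells, with *elavl4* and *syt1a* rising among 6 tested and again a median of 0.75. The 8 OPC genes summed to 1333, 91.0, and 767 CPM in *nkx2.1*+ cells, against 476, 465, and 336 CPM in *gsx2*+ cells, with *aplnra* rising among 2 tested and a median of 0.84. *slc6a1b* had 2451, 637, and 1654 CPM in *nkx2.1*+ cells, against 329.95, 184, and 138 CPM in *gsx2*+ cells (log2 fold change 2.81 ± 0.36, SE, edgeR adjusted p = 1.37e-11). *sulf1* had 482, 182, and 486 CPM in *nkx2.1*+ cells, against 121, 80.2, and 138 CPM in *gsx2*+ cells (log2 fold change 1.78 ± 0.36, SE, edgeR adjusted p = 0.000173, and 0.0951 and 0.149 without replicates 1 and 3). Both *slc6a1b* and *sulf1* were named as markers with these data known, and the *gsx2*+ sums of *sulf1* alone would not have entered the test. *slit2* and *ntn1b* were too low for this test, at 154, 45.5, and 64.8 CPM for *slit2* in *nkx2.1*+ cells, against 6.35, 8.02, and 0 CPM in *gsx2*+ cells, and at 451, 319, and 86.5 CPM for *ntn1b*, against 19.0, 16.0, and 29.6 CPM. Neither gene overlapped between the groups, which was so in this direction for 4.75% of tested genes.

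Some of the genes that rose against *nkx2.1*- cells did not pass against *gsx2*+ cells. *auts2b* had 379, 182, and 281 CPM in *nkx2.1*+ cells, against 324, 176, and 158 CPM in *gsx2*+ cells (log2 fold change 0.39 ± 0.34, SE, adjusted p = 0.94), and *sox1b* had 92.3, 137, and 238 CPM in *nkx2.1*+ cells, against 114, 56.1, and 158 CPM in *gsx2*+ cells. *sparc* had 533, 637, and 648 CPM in *nkx2.1*+ cells, against 292, 561, and 543 CPM in *gsx2*+ cells. The proteoglycan gene *spock3* and the neuronal RNA-binding gene *elavl4* (log2 fold change 1.45, edgeR adjusted p = 0.00574) rose here and did not pass against all *nkx2.1*- cells. Without replicate 1 their adjusted p was 0.661 and 0.143, and without replicate 3 it was 0.253 and 0.712. *spock3* had 359, 137, and 303 CPM in *nkx2.1*+ cells, against 76.1, 104, and 98.8 CPM in *gsx2*+ cells. It entered this test only through *nkx2.1*+ cells, where it was high, so that no fitted value is given for it.

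Of the genes lower in *nkx2.1*+ cells, *fezf1* had 61.5, 91.0, and 54.0 CPM in *nkx2.1*+ cells, against 457, 417, and 425 CPM in *gsx2*+ cells. *ndnf*, a secreted neurotrophic factor gene, had 0, 0, and 10.8 CPM in *nkx2.1*+ cells, against 102, 104, and 207 CPM in *gsx2*+ cells. *hapln1a*, which links hyaluronan to proteoglycans, had 0, 0, and 10.8 CPM in *nkx2.1*+ cells, against 165, 120.2, and 119 CPM in *gsx2*+ cells. *ndnf* and *hapln1a* had 1 UMI each in *nkx2.1*+ cells and were 27.6-fold lower (exact 95% counting interval 4.74 to 1113) and 29.3-fold lower (5.03 to 1179) over the pooled replicates. *fezf1*, *ndnf*, and *hapln1a* entered the test only through *gsx2*+ cells, where they were high, so that no fitted value is given. Neither *ndnf* nor *hapln1a* passed without replicate 1 (adjusted p = 0.103 and 0.672). The groups of these 3 genes did not overlap, which was so in this direction for 6.13% of tested genes. *efnb2a*, an ephrin-B ligand, had 71.8, 91.0, and 86.5 CPM in *nkx2.1*+ cells, against 730, 112, and 425 CPM in *gsx2*+ cells, and *pnp6*, a purine nucleoside phosphorylase of deeply quiescent radial glia, 92.3, 137, and 32.4 CPM against 216, 561, and 257 CPM. *efnb2a* and *pnp6* also entered the test only through *gsx2*+ cells, where they were high. Without replicate 1, *efnb2a* had an adjusted p of 0.103, and without replicate 3 *pnp6* had 0.431. The midkine genes were again lower in *nkx2.1*+ cells, at 3405, 3414, and 3318 CPM for *mdkb* in *nkx2.1*+ cells, against 7468, 5788, and 6559 CPM in *gsx2*+ cells (log2 fold change −0.97 ± 0.27, SE, adjusted p = 0.0183, and 0.672 and 0.752 without replicates 1 and 3).

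**Figure D5:**
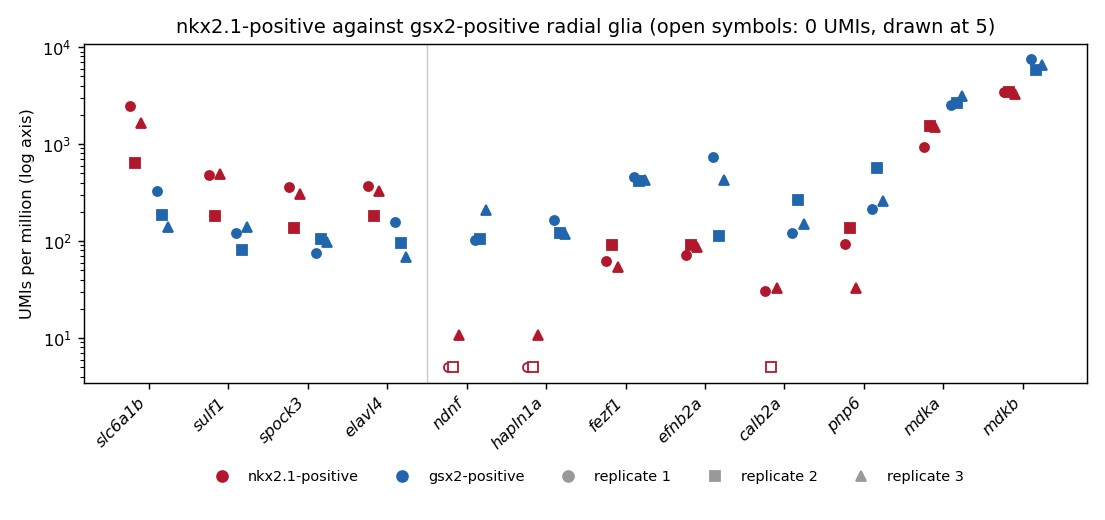
Level (CPM, log axis) of 12 genes in *nkx2.1*+ (red) and *gsx2*+ (blue) radial glia, one point per replicate, with open symbols for sums of 0 UMIs. Genes left of the line were higher in *nkx2.1*+ cells (*slc6a1b* at 637 to 2451 CPM, against 138 to 329.95 CPM in *gsx2*+ cells) and genes right of it lower (*fezf1* at 54.0 to 91.0 CPM against 417 to 457 CPM).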

How the data were processed

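Single cells of 3 libraries were prepared with the 10x Genomics 3′ v2 protocol. Per the labels and file headers, the authors mapped reads to GRCz11 and made the deposited values, whole UMI counts per gene and barcode without normalization, with Cell Ranger 3.0.1. The libraries held 15050320, 13048298, and 12104324 UMIs. The cells, marker genes, and gene lists were chosen with earlier results of these data known.

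Cells were filtered and chosen as described in the report, and UMIs were summed per replicate. Genes were tested with the quasi-likelihood method of edgeR 4.0.16 in R 4.3.3 after TMM scaling and filterByExpr, in a model with a term for each replicate and a threshold of 0.05 on Benjamini-Hochberg adjusted p. The 9 genes that chose the cells stayed in the library sizes but were not tested. SEs were derived from the fold change and its F statistic. The block follows from the design, since the sums of a replicate come from 1 library, and their deviations correlated with coefficients of 0.306, 0.173, and 0.088 for *nkx2.1*+ against *nkx2.1*- cells. For 743 gene symbols listed under more than 1 identifier, values are those of the identifier with the highest total, except that 2 identifiers of *hbba1* were tested apart. Genes named are the 12 largest rises and 12 largest falls past the threshold with 1 direction in 3 replicates and at least 10 UMIs in the higher group, leaving out clone names, with list members past the threshold, all listed ventral, dorsal subpallial, and Hedgehog genes, genes the study names, and the 5 largest rises and falls against *gsx2*+ cells. The text describes the most informative of these. For shares, cells were thinned to 1000 UMIs, and intervals are exact Clopper-Pearson 95% intervals, which cover counting error only. Oligodendrocytes and macrophages are cells with UMIs of at least 3 of their listed markers and none of *slc1a2b* and *cx43*. Doublets were scored with Scrublet in scanpy 1.11.5 and left in. Alternatives were DESeq2 1.42.0, RLE scaling, no filter, no block, each replicate left out, a threshold of 2 *nkx2.1* UMIs, doublets left out, matched depth, other cell types left out, and both glial genes asked for. Tested on simulated data with 7183 genes, the fit recovered 100% of genes raised 3 log2 units and 51.3% of those lowered as much. At 2 log2 units it recovered 68.0% of raised and 38.5% of lowered genes. The simulated sums had 1 fixed dispersion for all genes, which real sums need not share.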

Additional observations from a re-analysis of the deposited data

How the results depend on the processing

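Against *nkx2.1*- radial glia, 121 genes passed, and 34 with DESeq2, 25 without the replicate block, 23 with at least 2 *nkx2.1* UMIs, 34 with reference cells matched on UMIs (of 1784 genes tested), and 30 without cells holding genes of other cell types. Leaving out each replicate gave 21 to 283. RLE scaling (124), no filter on low counts (107), leaving out doublets (103), and both glial genes (103) kept the count within 1.5 times. Against *gsx2*+ radial glia, 35 genes passed, and 3 with DESeq2, 11 without the replicate block, 15 with cells of matched depth, 10 without cells holding genes of other cell types, 10 with both glial genes, and 6 to 66 with each replicate left out. Fewer genes were tested with matched depth and without other cell types, and the cause of the other differences was not tested. Of 46 called values of named genes against *nkx2.1*- cells, 17 passed with DESeq2 and 13 without the block, and none changed direction under any alternative. Many of these genes were named for 1 direction in all 3 replicates, which favors a kept direction. Of all 121 called genes, 112 of 116 tested kept their direction with at least 2 *nkx2.1* UMIs, and 119 of 120 did without replicate 1. The share of *nkx2.1*+ cells was 1.098% when thinned to 500 UMIs and 0.945% with at least 2 UMIs. The difference in shares was 28.0 points for *ntn1b* when thinned to 2000 UMIs and 30.5 with at least 2 *nkx2.1* UMIs. For *sulf1* it was 31.1 points without thinning, 11.9 and 39.1 at 500 and 2000 UMIs, 60.8 with at least 2 *nkx2.1* UMIs, and 11.7 without cells holding genes of other cell types, and for *slc6a1b* it was 73.3 with at least 2 *nkx2.1* UMIs. Replicate 2 held 9 *nkx2.1*+ cells, which limits every low gene.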
